A study of Caenorhabditis elegans with 2 samples.

Results

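The F-box B and F-box C genes of Caenorhabditis elegans, named fbxb- and fbxc-, are 152 of the 19973 protein-coding genes that the Ensembl release 115 annotation of WBcel235 places on the 6 nuclear chromosomes. They were chosen by name alone and comprise 104 fbxb and 48 fbxc gene records. The 152 records carry 146 distinct names, because fbxc-8 names 4 records, fbxc-4 names 3 and fbxc-5 names 2. Binding of MADF-6 at their 5′ ends was described from chromatin immunoprecipitation followed by sequencing (ChIP-seq) with an antibody against GFP. All animals were whole young adults, 63 h old, of strain RW12237, in which CRISPR had placed TY1, EGFP and 3xFLAG tags in the madf-6 gene, and all their tissues were pooled. They had been synchronised as starved first-stage larvae. There was 1 group, with 2 biological replicates, and no untagged strain, other stage or separate tissue was analysed here.

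F-box proteins are the substrate receptors of SCF ubiquitin ligases. The F-box motif binds a Skp1-related adaptor, which joins it to a cullin and a RING subunit, and the rest of the protein recruits the target to be ubiquitinated. Nematode genomes carry greatly expanded F-box families, many of them in tandem arrays, and many of their proteins pair the F-box with an F-box associated domain or an FTH domain. MADF-6 takes its name from the MADF domain, which binds DNA and resembles the Myb domain. In RefSeq, the product names of the fbxb genes were F-box domain-containing protein for 66, F-box associated domain-containing protein for 35 and both for 3. Of the fbxc genes, 29 were named F-box C protein, 13 F-box domain-containing protein, 3 FTH domain-containing protein and 2 FBA_2 domain-containing protein, and 1 had both the F-box C and the FBA_2 name.

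The material consists of 8 peak lists. Each replicate has a thresholded list (2803 peaks in replicate 1, 4519 in replicate 2) and a longer ranked list made before thresholding (57453 and 65847 peaks). A conservative list of 4384 peaks and a less strict list of 5060 combine the replicates, and each has a combined ranked list behind it, of 63808 peaks for the conservative one. The conservative list is meant wherever none is named, and "the ranked list" is the combined one behind it. A gene was called bound when the summit of a peak, the position of its highest enrichment, lay at most 500 bp from the 5′ end of the gene in the annotation. Because trans-splicing is common in this species, transcription may start elsewhere. The signal of a peak is the enrichment value the authors deposited, whose scale differs between lists, so signals are compared only within a list. The files hold no read counts, and depth is unknown for both samples.

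Few of the F-box B and C genes were bound, and those that were belonged mostly to the C family. A conservative summit lay near 6 of the 152 genes (3.95%, 95% Wilson interval 1.82 to 8.34), whereas 12.3% of all protein-coding genes had one. Of the fbxb genes 1 of 104 was bound (0.962%, interval 0.170 to 5.25), and of the fbxc genes 5 of 48 (10.4%, interval 4.53 to 22.2). The fbxb share was below that of all genes. The fbxc share was close to it, slightly below here but slightly above with a window of 250 bp (8.33% against 8.14%) and among peaks at or above the median signal (8.33% against 7.91%). The difference between the families was not tested, and the intervals cover counting error only and treat genes as independent, which genes of a tandem array are not.

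The bound genes were fbxc-23, fbxc-44, fbxc-50, fbxb-85, fbxc-45 and fbxc-47. The 8 conservative summits near them all lay upstream of the gene, in sequence the annotation calls intergenic. Over all bound genes 77.6% of the 2655 pairs of gene and summit were upstream. All 8 had the highest score the deposited scale allows, 1000. Among them was a summit near fbxc-45 with a signal of only 14.89 (rank 4307 of 4384). The share of all summits with this score is not given here. The strongest signal at each of the 6 had a median of 432.8, against 202.7 over all 2462 bound genes. The 4 genes that share their summit with a gene outside the family had 419.5 to 2365. The 2 that share none, fbxc-45 (197.7) and fbxc-47 (97.61), were below 202.7.

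All but 1 of the bound genes also had a summit in each replicate's own list. In replicate 1's own thresholded list 5 of the 152 genes had a summit (3.29%, against 8.75% of all genes), and in replicate 2's 7 (4.61%, against 12.9%). The 5 with one in both (3.29%, against 8.17% of all genes) were the bound genes other than fbxc-47. At these 5 the strongest summits of the replicates lay 2 bp apart at fbxc-23, 6 bp at fbxb-85, 21 bp at fbxc-50, 40 bp at fbxc-45 and 44 bp at fbxc-44. In the less strict combined list 7 of the 152 genes were bound (4.61%, against 13.4% of all genes). The gene gained there was fbxb-97.

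**Figure D1:**
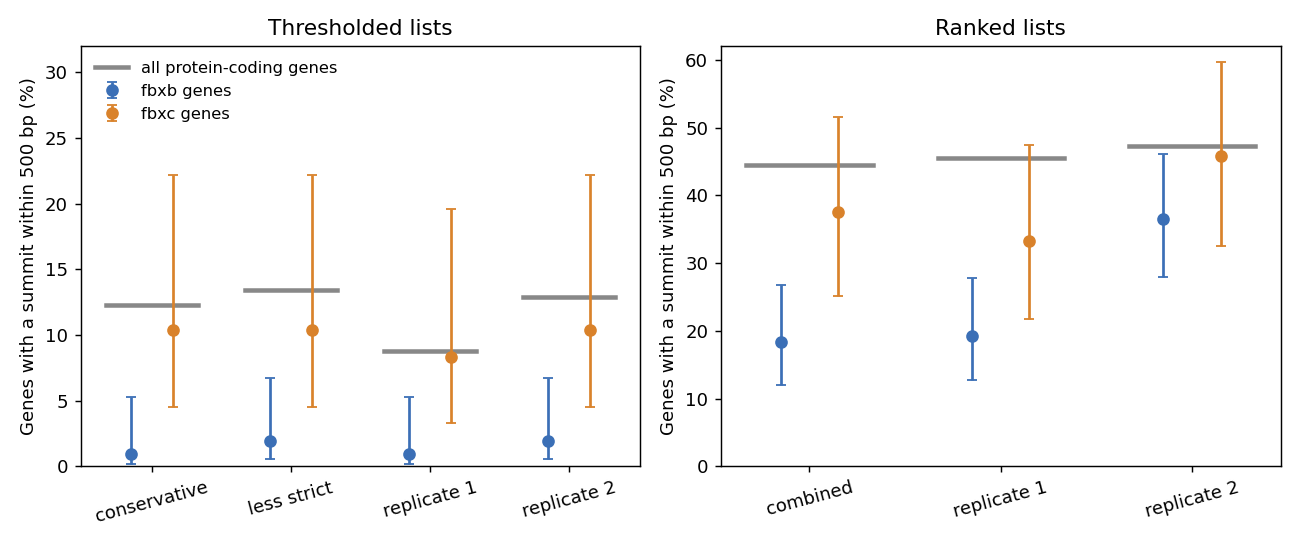
Share of fbxb genes (blue) and fbxc genes (orange) with a summit within 500 bp of the 5′ end, with 95% Wilson intervals, in the 4 thresholded lists (left) and 3 ranked lists (right); grey bars give the share of all protein-coding genes. The fbxb share stays below the grey bar in every list shown, by its whole interval, while each fbxc interval includes the bar.

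The strongest of these sites was that of fbxc-23, on the right of chromosome II (minus strand, 13595003 to 13596555), whose RefSeq product has an FTH domain. Its summit at 13596758 lay 203 bp upstream and had a signal of 2365, rank 25 of 4384. In replicate 1 the signal was 806.4 (rank 20 of 2803), and in replicate 2 it was 1594 (rank 25 of 4519). The same summit is 197 bp upstream of csc-1, a gene of the chromosomal passenger complex that runs from 13596955 to 13597947 on the other strand. It is nearer to csc-1, and assigning each summit to the nearest 5′ end alone would leave fbxc-23 unbound. The nearest other F-box B or C gene is 1113633 bp away.

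A pair of tandem genes on the left of chromosome II contains the next site. fbxc-44 (minus strand, 4236504 to 4237751) had 2 summits, 150 and 349 bp upstream, in a single peak interval from 4237779 to 4238195. The nearer, at 4237901, had a signal of 562.5 (rank 421), with 199.3 in replicate 1 (rank 365) and 356.5 in replicate 2 (rank 474). The farther, at 4238100, had 373.2 in the conservative list (rank 749) but only 5.676 (rank 2761) and 18.87 (rank 4465) at the nearest summits of replicates 1 and 2, near the bottom of both lists. Both summits also lie within 500 bp of the 5′ end of C16A11.2, which starts on the opposite strand 452 bp from that of fbxc-44. The tandem neighbour, fbxc-43, whose 5′ end is 1755 bp away, was not bound.

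On chromosome II, fbxc-50 (minus strand, 3246316 to 3248123) had a summit 122 bp upstream at 3248245, with a signal of 446.1 (rank 597). It ranked 464 in replicate 1 (166.1) and 642 in replicate 2 (292.1). C17F4.2, on the other strand with its 5′ end 545 bp from that of fbxc-50, shares this summit at 423 bp.

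The bound fbxb gene was fbxb-85 on chromosome III (minus strand, 10847614 to 10848963). Its summit at 10849043 was 80 bp upstream, the shortest distance among the bound genes, with a signal of 419.5 (rank 645). The replicates gave 114.4 (rank 797) and 307.7 (rank 593). The summit is 179 bp upstream of hex-3, a hexosaminidase family gene on the other strand.

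The bound genes of chromosome IV shared no summit with another gene of any kind. fbxc-45 (minus strand, 2919827 to 2922243) had its stronger summit 140 bp upstream at 2922383, with a signal of 197.7 (rank 1626), 77.11 in replicate 1 (rank 1298) and 132.3 in replicate 2 (rank 1690). A weaker summit 339 bp upstream had a signal of 14.89 (rank 4307), and neither replicate's thresholded list held it. fbxc-47 (plus strand, 3805519 to 3806712) had the weakest binding, a summit 486 bp upstream at 3805033 with a signal of 97.61 (rank 3216). Replicate 2 gave 60.83 there (rank 3674), and replicate 1 had no summit near fbxc-47 in either of its lists. The 486 bp put it just inside the window, and it was lost at 250 bp.

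Of the thresholded lists, only the less strict one and that of replicate 2 had a summit near fbxb-97 on chromosome II (minus strand, 1846977 to 1848161). This summit, 212 bp upstream, had a signal of 109.5 in the less strict list (rank 2950 of 5060, score 1000). In replicate 2 it had 60.34 (rank 3708, score 861, where the list ends at 830). Neither of replicate 1's lists had a summit there. A summit outside the window was that of fbxb-14 (minus strand, 582111 to 582749). It lay at 582126 in the conservative list, 623 bp downstream of the 5′ end and near the 3′ end of the gene (signal 173.6, rank 1874).

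**Figure D2:**
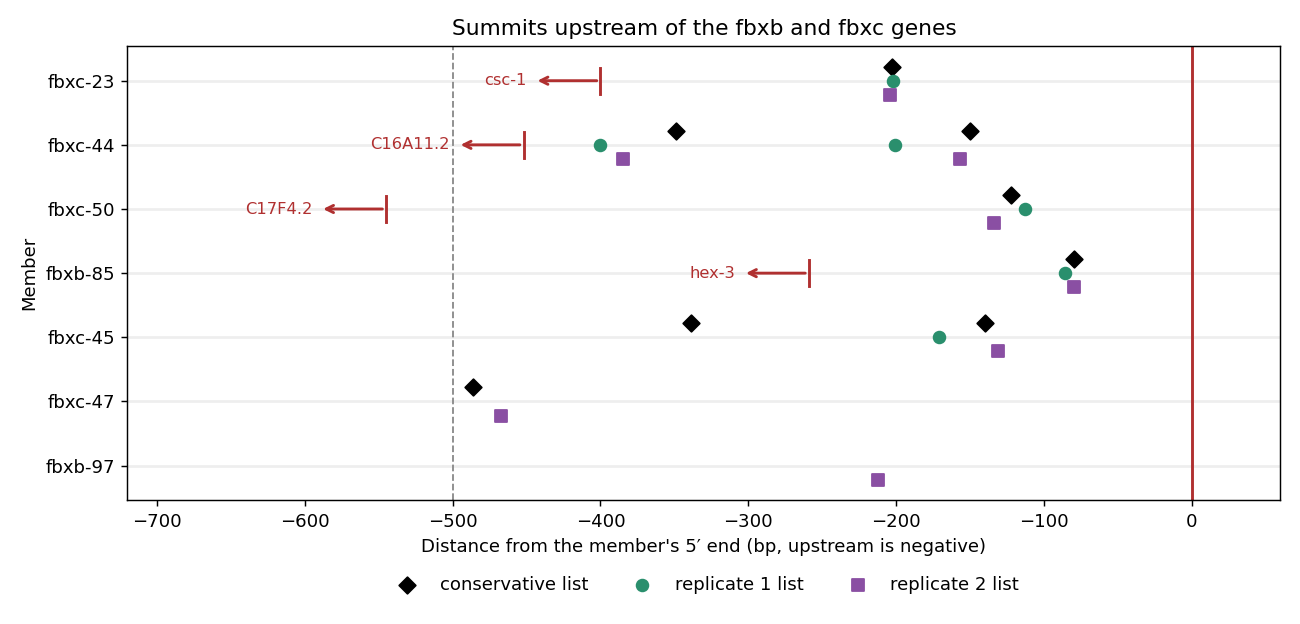
Summits of the conservative list (black), replicate 1 (green) and replicate 2 (purple) relative to the 5′ end of each bound gene and of fbxb-97, which only replicate 2 and the less strict list held; red marks are the 5′ ends of genes that share the summit, with arrows in their direction of transcription, and the dashed line is the edge of the 500 bp window. The replicates' strongest summits fall within 44 bp of each other at the 5 genes held by both.

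The promoters of fbxc-44, fbxc-45 and fbxc-47 contain related sequence under their summits. The window of 151 bp centred on the nearer fbxc-44 summit was searched against the genome with blastn at an E-value of 1e-5 and gave 9 other matches. The match with the highest identity was in the promoter of the unbound fbxc-43 (134 bp aligned, 93.3%), and the longest in that of fbxc-45 (146 bp, 89.7%). The fbxc-47 promoter matched over 93 bp at 76.3%, and like those of fbxc-43 and fbxc-45 the match has the same orientation to the gene as at fbxc-44. The sequences are shown because the summits of the 3 bound genes fall in or beside these related stretches. Each is read 5′ to 3′ on the strand of its gene, from WBcel235. In the fbxc-44 window, capitals mark the stretch aligned to fbxc-47. In the other sequences, capitals mark the bases identical to fbxc-44.
fbxc-44, chromosome II 4237826 to 4237976, minus strand: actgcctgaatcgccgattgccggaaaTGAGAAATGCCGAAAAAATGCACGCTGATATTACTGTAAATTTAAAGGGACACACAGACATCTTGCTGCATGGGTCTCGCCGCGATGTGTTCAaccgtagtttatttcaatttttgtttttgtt
fbxc-43, chromosome II 4236071 to 4236204, minus strand: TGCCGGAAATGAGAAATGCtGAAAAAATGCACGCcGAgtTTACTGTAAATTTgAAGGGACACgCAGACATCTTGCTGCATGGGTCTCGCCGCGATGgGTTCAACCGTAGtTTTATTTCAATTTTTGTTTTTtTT
fbxc-45, chromosome IV 2922325 to 2922467, minus strand: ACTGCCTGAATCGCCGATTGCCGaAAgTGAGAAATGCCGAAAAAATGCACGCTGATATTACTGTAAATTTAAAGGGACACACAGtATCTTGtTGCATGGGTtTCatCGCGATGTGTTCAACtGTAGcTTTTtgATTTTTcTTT
fbxc-47, chromosome IV 3804946 to 3805036, plus strand: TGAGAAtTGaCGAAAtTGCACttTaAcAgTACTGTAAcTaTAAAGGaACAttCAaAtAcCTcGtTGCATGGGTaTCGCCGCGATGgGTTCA

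The match at fbxc-43 had no summit within 100 bp of its centre in the conservative list, in either replicate's thresholded list or in the ranked list, although it is the copy most like that of fbxc-44. Every 50-base word of this copy occurs once in the genome. Of the words of the fbxc-44 window 92.2% did, and of the fbxc-45 match 91.5%, while in the remaining matches all did. Of the 9 matches 3 had a conservative summit within 100 bp of their centre, those at fbxc-45, fbxc-47 and an intergenic stretch of chromosome V (18137828 to 18137927, 103 bp aligned, 89.3%, signal 269.6). The last lies 1118 bp upstream of Y37H2A.10. A further match, of 60 bp in an intron of gop-1 (80.0%), had a ranked-list summit of 50.21. The remaining 5, fbxc-43 included, had no summit in either list. The other 4 of these had between 77.1% and 79.2% identity and lay in introns of Y105C5A.1 and C06H5.6, in the 3′ UTR of the C-type lectin gene clec-67 and upstream of F19B2.5. The windows of fbxc-23 and fbxc-50 and of the farther fbxc-44 summit gave no other match when searched themselves. That of fbxb-85 gave 1. The window of the weaker fbxc-45 summit gave 3 other matches. Among these was a stretch of 70 bp at 82.9% identity (chromosome II 4238005 to 4238073) that overlaps the farther fbxc-44 window.

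**Figure D3:**
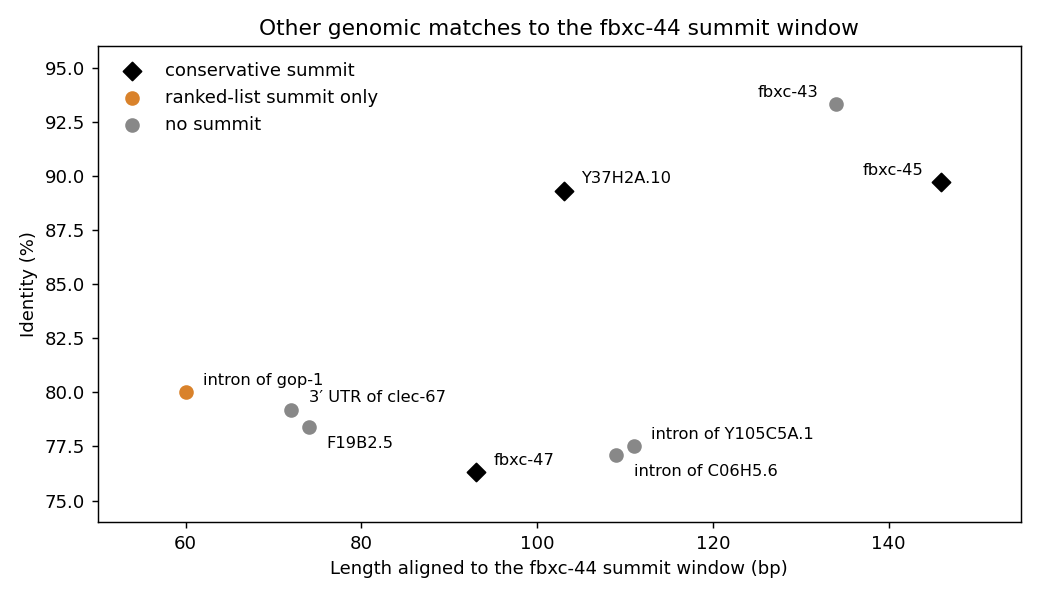
Length aligned (bp) and identity (%) of the 9 other genomic matches to the fbxc-44 summit window, named by the gene they lie in or nearest to; black diamonds have a conservative summit within 100 bp, the orange point has a ranked-list summit alone and grey points have neither. The match at fbxc-43 has the highest identity, 93.3%, and no summit.

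A set of 10 words of 6 bases was searched for on both strands in windows of 151 bp. They were the words whose share of all summit windows exceeded most that of windows centred 300 bp to each side, so their excess at summits is how they were chosen. GAGACC was in 16.5% of all summit windows, CGAGAC in 16.4%, GGCGCA in 16.2% and AAGGCG in 15.9%. AGGCGC was in 15.5%, ACCGTA in 14.6%, CGCGCA in 13.4% and ACGCGC in 13.3%. CGCGCC was in 13.0% and GCGCAC in 12.8%, and several of the 10 overlap one another. At least 1 of them occurred in 57.0% of all 4384 summit windows, in 22.4% of the flanking windows and in 22.3% of windows centred 150 bp upstream of all genes. Among the F-box B and C genes it occurred in 5 of the 8 summit windows (62.5%) and in 21.9% of the promoters of the 146 unbound genes. The fbxc-23 window held 3 of the words, as did that of fbxb-85 and the nearer one of fbxc-44. The farther fbxc-44 window held 2, and that of fbxc-50 held 1. Those of fbxc-45 and fbxc-47 held none, although they align to the fbxc-44 window. The windows of fbxc-23, fbxb-85 and fbxc-50 are shown to place these words, in capitals, around summits that have no copy elsewhere, or 1 in the case of fbxb-85. A match is a description of the letters and not of a bound site.
fbxc-23, chromosome II 13596683 to 13596833, minus strand: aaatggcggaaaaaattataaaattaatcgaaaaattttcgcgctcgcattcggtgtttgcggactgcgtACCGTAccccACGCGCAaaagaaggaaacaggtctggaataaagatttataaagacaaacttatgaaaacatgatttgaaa
fbxb-85, chromosome III 10848968 to 10849118, minus strand: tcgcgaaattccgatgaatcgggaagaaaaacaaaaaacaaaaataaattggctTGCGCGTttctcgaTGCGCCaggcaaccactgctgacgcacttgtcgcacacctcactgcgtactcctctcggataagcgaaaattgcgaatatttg
fbxc-50, chromosome II 3248170 to 3248320, minus strand: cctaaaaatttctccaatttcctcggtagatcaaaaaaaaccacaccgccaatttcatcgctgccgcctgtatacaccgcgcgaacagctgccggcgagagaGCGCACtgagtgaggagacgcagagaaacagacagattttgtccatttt

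Most of the F-box B and C genes lie in a few arrays. Chromosome II holds 93 of the 152 genes (58 fbxb and 35 fbxc), and 91 of them, 59.9% of the whole family, are in the leftmost of 3 equal parts of that chromosome. Chromosome IV holds 22, V 16, I 10, III 8 and X 3. Just 4 genes, all on IV, lie in the middle part of a chromosome divided in this way. In the leftmost part of chromosome II 2 of the 91 members were bound (2.20%), against 109 of the 1166 other protein-coding genes there (9.35%).

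With a cluster defined as 3 or more members whose neighbouring 5′ ends are at most 50 kb apart, 107 of the genes fell into 11 clusters. None of these 107 was bound, and a count of 0 allows a share of up to 2.80%. The 6 bound genes were among the 45 outside clusters, a share of 13.3% (interval 6.26 to 26.2) that is near the 12.3% of all genes. Outside, 1 of 33 fbxb genes (3.03%, interval 0.537 to 15.3) and 5 of 12 fbxc genes (41.7%, interval 19.3 to 68.0) were bound, beside the same 12.3%, and these differences were not tested. Inside the clusters were 71 fbxb and 36 fbxc genes. The 141 other protein-coding genes inside the cluster spans were bound in 5 cases (3.55%, interval 1.52 to 8.03): alg-2, which encodes an Argonaute protein, T07D3.9, ZC204.13, F07E5.5 and F12E12.6. A low share was also measured at the other genes of these regions. In the less strict list and in replicate 2, 1 clustered gene was bound, fbxb-97. With gaps of 25 or 100 kb there were 14 or 10 clusters, and again none of their members was bound.

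**Figure D4:**
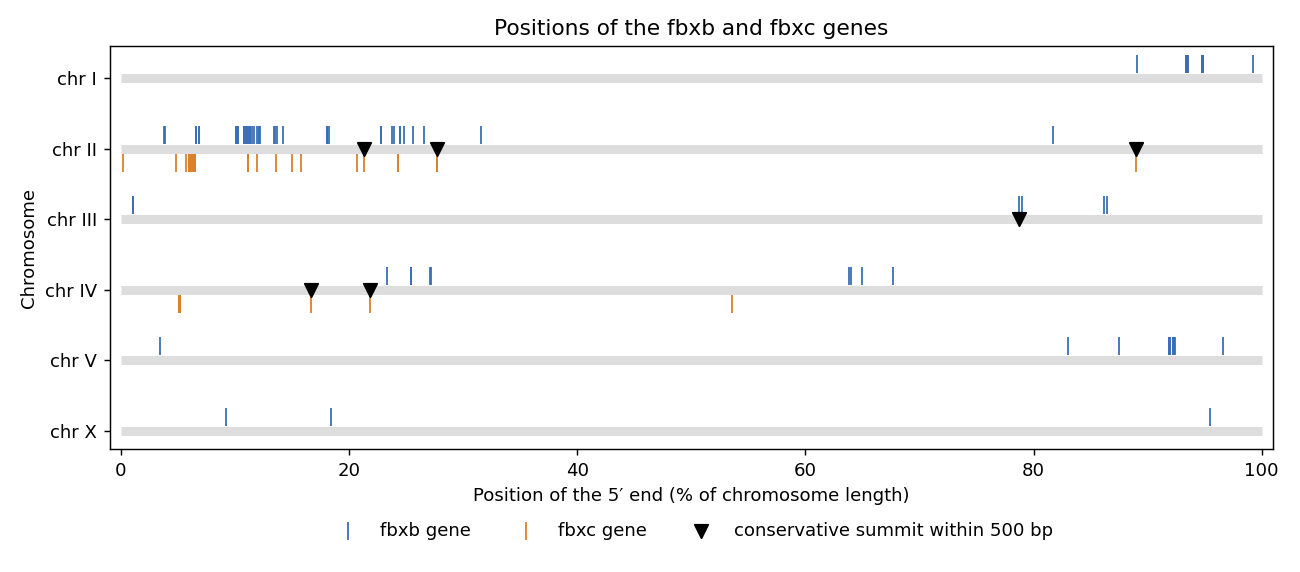
Positions of the 104 fbxb genes (blue) and 48 fbxc genes (orange) along the 6 chromosomes, as a percentage of chromosome length; black triangles mark the 6 genes with a conservative summit within 500 bp. Most genes are packed into the leftmost part of chromosome II, and the triangles lie at isolated genes or small groups.

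The largest clusters were on chromosome II. One from 868814 to 1049949 held 25 members, 19 of them fbxc, and 9 had a ranked-list summit within 500 bp. The next, from 1648868 to 1862634, held 24 members, 20 of them fbxb, and 4 had one. A group of 12 fbxb genes on chromosome V, from 19233769 to 19329563, and one of 9 on chromosome II, from 1536231 to 1571132, had none. Beside these counts, 44.5% of all protein-coding genes had a ranked-list summit, and 32.6% of the other genes inside cluster spans. Differences between single clusters and these shares were not tested. The cluster spans were not empty of signal, since 305 ranked-list peaks fell in them, 420 per Mb against 636 per Mb over the genome. But 4 clusters, with 22 members in all, had no ranked-list peak at all in their spans. They were 2 fbxb groups on chromosome I, 1 fbxb group on chromosome III and an array of 10 fbxc genes on chromosome IV (891239 to 909415).

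Repeated sequence was extreme in that last array. Its genes include the records that share the names fbxc-4, fbxc-5 and fbxc-8. Of the 50-base words within 500 bp of each 5′ end, none was unique in the genome for 9 fbxc genes and fewer than 50% for 11, the 10 of this array and fbxc-40. No fbxb gene was under 50%, the lowest being 53.4%, and 461 of all genes (2.31%) were. The sources used here do not say how the authors treated reads that map to several places, and the part of repeats in the absence of peaks was not tested. Among members with 50% or more of their words unique 6 of 141 were bound (4.26%), and among the 84 with all words unique 4 (4.76%, interval 1.87 to 11.6), against 12.9% of the 16095 genes with all words unique. Of the clustered members with 50% or more unique none of 96 was bound, which allows up to 3.12%. Among genes with all words unique, the member share was thus below that of all genes, a difference that was not tested.

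Of the 6 bound genes, 4 shared a summit with a divergent non-member gene: fbxc-23 with csc-1, fbxc-44 with C16A11.2, fbxc-50 with C17F4.2 and fbxb-85 with hex-3. With a window of 250 bp this count was 2, since no summit is within that distance of both 5′ ends at fbxc-44 or fbxc-50. Over all bound genes 922 (37.4%) shared a summit with another protein-coding gene. A summit between divergent 5′ ends cannot be given to one of them. The 22 members whose 5′ end has a divergent gene outside the family within 1000 bp were bound in 4 cases (18.2%, interval 7.31 to 38.5), and the 130 others in 2 (1.54%, interval 0.423 to 5.44). None of 14 with a divergent fellow member was bound, which allows a share of up to 21.4%. These 14 face one another in pairs, so they are not independent. The 130 others include these 14. The 36 members with any divergent protein-coding neighbour that near, inside the family or not, were bound in 4 cases (11.1%, interval 4.41 to 25.3). Counted in that last way over the whole annotation, the shares were 28.7% of 3539 genes with a divergent neighbour and 8.81% of 16434 without.

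In the longer ranked list, which also holds the peaks above the threshold, the F-box B and C genes had fewer called positions too. The ranked list put a summit near 37 of the 152 (24.3%, interval 18.2 to 31.7), against 44.5% of all genes. The 37 include the 6 bound members. For fbxb the share was 18.3% (19 of 104, interval 12.0 to 26.8) and for fbxc 37.5% (18 of 48, interval 25.2 to 51.6). Of the clustered members 17.8% had one, and of those outside 40.0%, including 9 of the 12 fbxc genes there. Of these 9, 5 were bound. The 141 other genes inside cluster spans had one in 32.6% of cases.

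The replicates' ranked lists reached different numbers of the F-box B and C genes. Replicate 1 listed 36 members (23.7%, against 45.5% of all genes) and replicate 2 listed 60 (39.5%, against 47.3%). Both listed 26 members (17.1%, against 36.8%), 10 were in replicate 1 alone and 34 in replicate 2 alone. Within replicate 2, the 34 had a median signal of 19.02 and the 26 found in both 25.06. Within replicate 1, the medians were 12.18 for the 10 and 19.10 for the 26. No summit in any of the 8 lists lay near 82 members.

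Where a ranked-list summit was present at an unbound gene, its signal was near that of other unbound genes. The strongest summit of each of the 31 unbound members had a median signal of 33.63 (range 5.304 to 77.53), beside 36.14 over all 6424 unbound genes with such a summit. Unbound fbxc genes had a median of 37.21 (13 genes) and unbound fbxb genes one of 29.82 (18 genes).

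**Figure D5:**
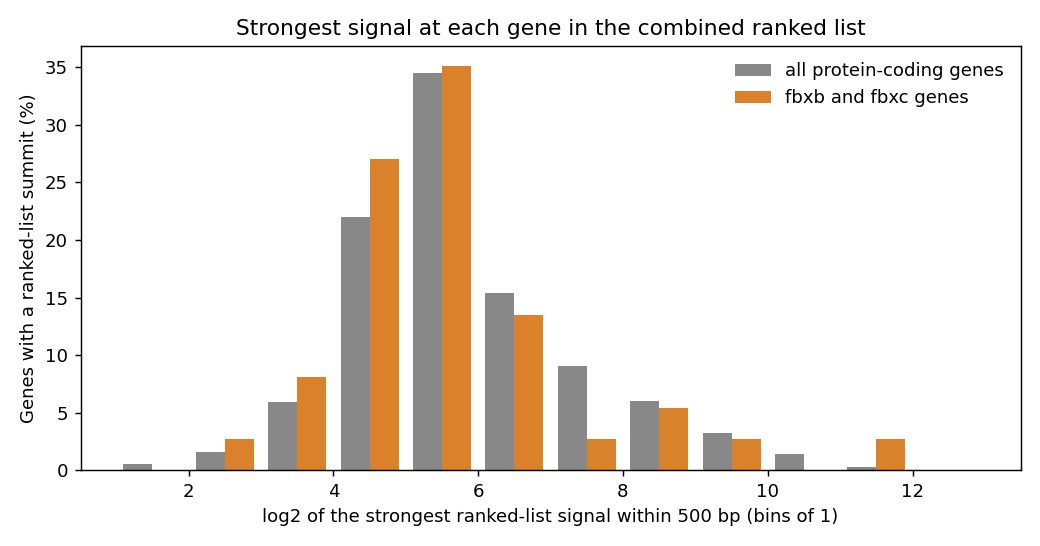
Distribution of the strongest ranked-list signal within 500 bp of each gene, in log2 bins, as a share of the 37 F-box B and C genes (orange) and of all 8886 protein-coding genes (grey) that have such a summit. Both distributions peak in the same bin, and 1 member, fbxc-23, lies in the top filled bin.

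The 5 highest signals among unbound members belonged to fbxc-43, fbxb-14, fbxc-15, fbxc-17 and fbxb-24. At fbxc-43 a ranked-list summit lay 329 bp upstream with a signal of 77.53 and a score of only 84. It had 50.08 in replicate 1 at the same base and 25.25 in replicate 2 at 285 bp. It lies outside the stretch that matches the fbxc-44 window. At fbxb-14 the summit was 468 bp upstream with a signal of 73.15 and a score of 810, under the 830 at which the conservative list ends. The replicates gave 25.61 and 48.22. fbxc-15 and fbxc-17 share a summit of 64.07, 15 bp upstream of the former and 173 bp upstream of the latter, with 19.10 and 39.83 in the replicates. At fbxb-24 the summit was 66 bp upstream with 54.26, and only replicate 2 listed it (34.75).

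Related gene lists were counted in the same way. Among the fbxa genes, the largest F-box family here, 4 of 170 were bound (2.35%, interval 0.919 to 5.89): fbxa-215 (signal 241.5), fbxa-108 (173.6), fbxa-106 (169.8) and fbxa-140 (86.76). Of 9 other named F-box genes 4 were bound (44.4%, interval 18.9 to 73.3). The strongest was prom-1 (899.7), which acts in meiotic prophase, followed by sel-10 (215.3), the worm relative of mammalian FBXW7, fog-2 (123.5), a germline sex-determination gene, and fsn-1 (101.1), which acts at synapses. Of the 23 SCF core genes 2 were bound (8.70%), the Skp1-related skr-18 (186.8) and the RING subunit gene rbx-1 (124.9). Of the 73 MATH and BATH genes, another expanded group, 7 were bound (9.59%, interval 4.72 to 18.5). All 7 were bath- genes, led by bath-36 (494.1) and bath-44 (411.2). All shares are read beside the 12.3% of all genes, and their differences were not tested.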

How the data were processed

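ChIP-seq peak lists on ce11 (WBcel235) were used as deposited. Peaks were derived from the alignments of each replicate and a single shared control, per the text deposited beside the lists, which also names an input file it does not describe for the thresholded lists. Which aligner and peak caller were used is not given in the sources used here. Each score deposited by the authors is capped at 1000. The signal is the enrichment value that the authors deposited. The summit is the peak start plus the deposited offset.

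Distances to the outermost 5′ end of each gene were computed in Python 3.11.15 with NumPy 2.4.6, figures were drawn with matplotlib 3.10.9 and matches were found with BLAST+ 2.17.0. Intervals are 95% Wilson intervals. A count of 0 allows a share of 3 counts of the total. No test was run. The counting of summits near 5′ ends was tested on simulated data. Members and lists were chosen with earlier results of these data known. Named are the bound members, those with a summit in another thresholded list only, the 5 others of highest ranked-list signal, and the genes sharing their summits. Genes bound inside cluster spans or in related lists, places matching a summit window, fbxb-14 as the gene outside the window and fbxc-40 were named after their values were seen.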

Additional observations from a re-analysis of the deposited data

How the results depend on the processing

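The count of bound members stayed between 5 and 7 under every alternative run: the less strict list, either replicate's list, peaks at or above the median signal, other windows, all transcript 5′ ends, the nearest 5′ end alone and peak overlap. The share of all genes bound moved more, from 7.91% among peaks at or above the median signal to 15.8% with a window of 1000 bp. The member share was 3.29% and 4.61% in these, and it was below that of all genes in every alternative. fbxc-47 was lost in replicate 1's list, at a 250 bp window and among peaks at or above the median signal, fbxc-23 with the nearest 5′ end alone, and fbxb-97 or fbxb-14 was gained elsewhere. The count of bound fbxb genes rose from 1 to 2 in the less strict list, with a window of 1000 bp and by overlap of the peak interval, and it ranged from 1 to 2 when a replicate was left out. With a window of 250 bp the distinct summits fell to 5 and the bound members sharing a summit to 2. The members with a ranked-list summit numbered 59 with a window of 1000 bp, for which the share of all genes is not given here. They numbered 36 in replicate 1's ranked list, beside 45.5% of all genes, and 60 in replicate 2's, beside 47.3%. Of 59 alternative values 8 moved beyond 1.5 times and the causes were not tested. The fbxb share stayed below that of all genes in each of the 9 alternatives, while the fbxc share, 10.4% against 12.3% as reported, was above it in 2 of 9: 8.33% against 8.14% with a window of 250 bp and 8.33% against 7.91% among peaks at or above the median signal. Counting the members with 50% or more unique words, an alternative chosen after seeing the data, moved the bound share from 3.95% to 4.26%. The sharing count was not run for the nearest 5′ end alone, where it is 0 by construction. No paired analysis was possible because there was 1 group. Without read counts, weak binding cannot be told from insufficient depth.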
